A study of Mus musculus with 2 samples.

Results

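Of the 22508 genes counted in single cells of healthy mouse liver, 9 encode fibrillar or type VI collagen chains or the fibril-bound collagen XIV and were read here by their gene symbols: Col1a1, Col1a2, Col3a1, Col5a1, Col5a2, Col6a1, Col6a2, Col6a3 and Col14a1. All 9 had UMIs in both libraries. Collagens are secreted as 3-stranded helices. Type I joins chains from Col1a1 and Col1a2, type III is made of Col3a1 chains alone, and both form the thick fibrils that build a scar when the liver is injured. Type V, from Col5a1 and Col5a2, is a minor fibril component that helps fibrils to start. Type VI, from Col6a1, Col6a2 and Col6a3, forms beaded filaments around cells, and collagen XIV sits on the surface of fibrils. In the liver these chains are made by mesenchymal cells, among them the retinoid-storing stellate cells of the sinusoids and the fibroblasts of the portal tracts.

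The cells came from livers of 8-week-old C57BL/6 mice in 2 samples of a single group, WT replicate 1 and WT replicate 2, with no injury or treatment group. The series is titled after perivenous stellate cells as a source of scar-forming cells after injury. Livers were digested with enzymes, and non-parenchymal cells were taken from a Percoll gradient and run on droplet 3' sequencing, which counts 1 unique molecular identifier (UMI) per captured RNA molecule. The labels do not say whether the samples are separate animals. The table lists 40645060 UMIs in 7362 cells for replicate 1 and 11867207 UMIs in 2341 cells for replicate 2. Filtering left 6765 and 2341 cells, with medians of 4719 and 5012 UMIs per cell.

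Cell types are names for cells that pass a gate of marker UMIs. The gate asked for at least 3 UMIs from at least 2 genes of a list, with at least 75% of the UMIs of all passed lists in that list. All 2341 cells of replicate 2 passed the UMI and gene minimum of the stellate gate. They were all used as stellate cells, without the purity step that was asked of replicate 1. Colec11 was seen in 100% of them, Reln in 99.9% and Lrat in 96.5%. Of these cells 1120 (47.8%) also passed the endothelial gate, with Clec4g at 243 CPM (counts, here UMIs, per 1000000) against 2448 CPM in endothelial cells. In replicate 1 the gates gave 102 portal fibroblasts (Dpt in 97.1%, Clec3b in 92.2%), 90 mesothelial cells (Upk3b in 98.9%, Msln in 97.8%) and 18 smooth muscle cells (Myh11 in 100%). The portal fibroblast marker Gas1 was also in 98.9% of mesothelial cells, and T cell genes such as Cd3e were in 1 of the smooth muscle cells (5.56%). The other 6 types held 6085 cells, of which 3072 were endothelial cells and 2519 were Kupffer cells, the resident macrophages of the liver. Nearly all stellate cells lie in one library and every other type lies in the other, so type and library cannot be told apart where the replicate 2 stellate cells are compared with another type. No test was possible. Intervals are exact 95% intervals that cover counting error only.

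The fibrillar chains of types I and III were highest in portal fibroblasts, and Col14a1 was highest in stellate cells. In portal fibroblasts Col3a1 stood at 3775 CPM, Col1a2 at 3105 CPM and Col1a1 at 1904 CPM. In stellate cells Col14a1 stood at 2549 CPM, above Col3a1 at 641 CPM and Col1a2 at 408 CPM. The 9 genes together made 12973 CPM in portal fibroblasts (interval 12705 to 13245), 4434 CPM in stellate cells (4396 to 4472), 3268 CPM in smooth muscle cells (2964 to 3596), 2811 CPM in mesothelial cells (2710 to 2914) and 50.4 CPM in endothelial cells (47.1 to 54.0). The intervals of these 5 sums do not overlap, but they cover counting error only. In smooth muscle, 3 of the 18 cells held 79.0% of the Col1a1 and 71.3% of the Col3a1 UMIs.

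**Figure D1:**
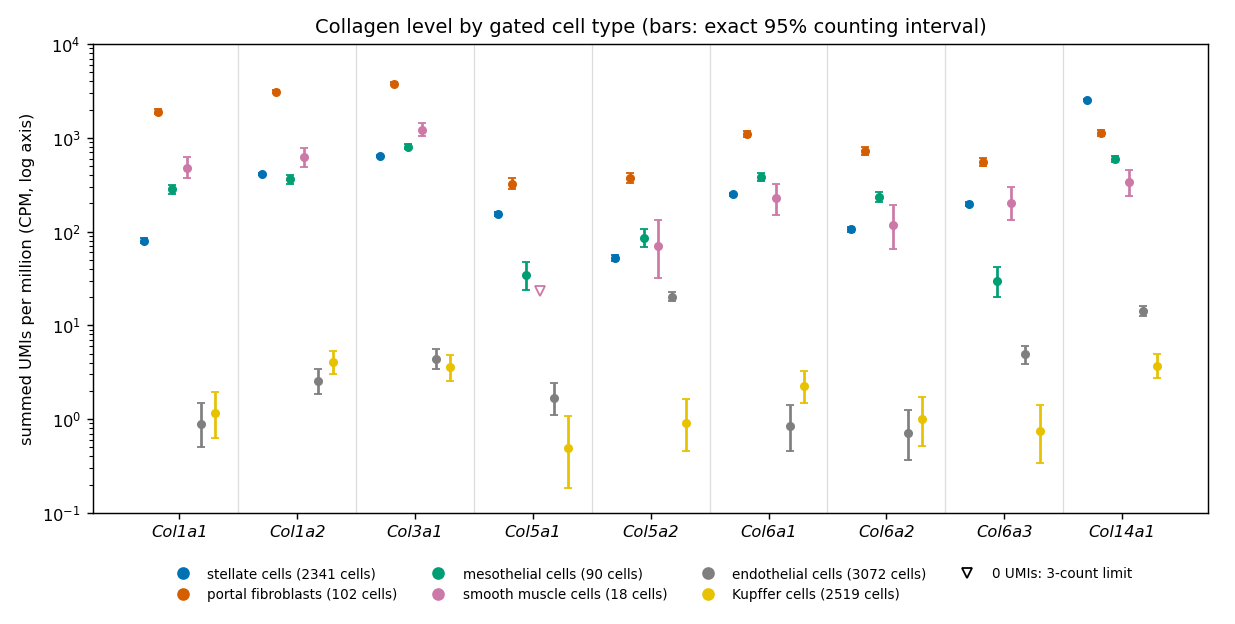
Level of the 9 collagen genes in 6 gated cell types, as UMIs summed over the cells of a type per 1000000 UMIs (log axis), with exact 95% Poisson intervals. Portal fibroblasts are highest for 8 genes and stellate cells for Col14a1 (2549 CPM), while endothelial and Kupffer cells lie at most at 20.2 CPM.

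Among the fibrillar chains, Col1a1 differed most between portal fibroblasts and stellate cells. Its level was 1904 CPM in portal fibroblasts (1309 UMIs, interval 1802 to 2010), 481 CPM in smooth muscle cells (62 UMIs, 369 to 617), 282 CPM in mesothelial cells (295 UMIs, 250 to 316) and 79.8 CPM in stellate cells (947 UMIs, 74.8 to 85.1). These 4 intervals cover counting error only and do not overlap, and stellate cells are the lowest of the 4 types. With CPM averaged over cells, smooth muscle cells fell below mesothelial cells. The log2 ratio of portal fibroblasts was then 2.57 over smooth muscle cells and 2.48 over mesothelial cells. In smooth muscle, 3 of the 18 cells held 79.0% of the Col1a1 UMIs. Endothelial cells (0.893 CPM) and Kupffer cells (1.16 CPM) had overlapping intervals near 1 CPM. A Col1a1 UMI was found in 98.0% of portal fibroblasts, 55.6% of smooth muscle cells, 54.4% of mesothelial cells and 22.5% of stellate cells, against 0.516% of Kupffer cells. With each cell thinned to 2000 UMIs the shares were 93.5%, 47.1%, 28.4%, 11.4% and 0.454% in the same types, the same order. Thinning left out 45 stellate cells, 9 portal fibroblasts, 2 mesothelial cells, 1 smooth muscle cell and 536 Kupffer cells with fewer UMIs.

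Col1a2 and Col3a1 were seen far more widely in stellate cells. Col1a2 was in 80.0% of stellate cells (52.9% after thinning) and Col3a1 in 86.5% (65.0% after thinning). The level of Col1a2 was 408 CPM in stellate cells (397 to 420), 360 CPM in mesothelial cells (324 to 398) and 621 CPM in smooth muscle cells (492 to 773). The intervals of stellate and mesothelial cells touch, so these neighbours in the order cannot be separated. Col3a1 was at 641 CPM in stellate cells (626 to 655), 804 CPM in mesothelial cells (751 to 860) and 1219 CPM in smooth muscle cells (1036 to 1425). In portal fibroblasts both genes were in all 102 cells, with medians of 17.5 and 22.5 UMIs per cell and at most 90 and 106.

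The patterns of Col1a2 and Col3a1 over the types were the closest pair among the genes compared with Col3a1 (Pearson r = 0.994 over 9 types, on log2(CPM + 1)). Their promoters are shown for this reason, as the 250 bases before the RefSeq start (GRCm38.p6, plus strand, 5′ to 3′). Capitals mark matches on either strand to CCAAT or to TATAAA or to GGGCGG, none of which overlap here.
Col1a2, chr6:4505368-4505617: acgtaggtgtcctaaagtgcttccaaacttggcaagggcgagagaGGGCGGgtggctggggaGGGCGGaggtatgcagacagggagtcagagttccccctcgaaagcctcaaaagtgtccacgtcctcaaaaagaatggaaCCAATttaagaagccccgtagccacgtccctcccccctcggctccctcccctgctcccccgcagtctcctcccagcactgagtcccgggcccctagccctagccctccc
Col3a1, chr1:45311288-45311537: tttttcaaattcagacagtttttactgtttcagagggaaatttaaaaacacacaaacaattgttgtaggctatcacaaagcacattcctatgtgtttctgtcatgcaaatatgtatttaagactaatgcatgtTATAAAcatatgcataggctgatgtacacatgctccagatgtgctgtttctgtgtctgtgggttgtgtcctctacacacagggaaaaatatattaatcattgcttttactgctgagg
The Col1a2 window holds CCAAT once, 109 bases before the start, and GGGCGG at 2 places. The Col3a1 window holds TATAAA once, 117 bases before the start, and neither of the other motifs. Their GC contents are 62% and 35.2%. Over 32851 promoters of the same length, CCAAT was present in 33.8%, TATAAA in 12.4% and GGGCGG in 32.7%. Promoters of 6 of the 9 genes were matched by symbol, and those of Col6a1 and Col6a3 hold none of these 3 motifs.

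Type V chains were lower than those of types I and III in portal fibroblasts, mesothelial cells and smooth muscle cells, while in stellate cells Col5a1 stood above Col1a1. Col5a1 was at 324 CPM in portal fibroblasts (283 to 370), 153 CPM in stellate cells (146 to 160) and 34.4 CPM in mesothelial cells (24.1 to 47.6). No Col5a1 UMI was found in the 18 smooth muscle cells, where 3 UMIs, the limit set for a count of 0, would make 23.3 CPM (exact upper bound 28.6 CPM). Col5a2 was at 375 CPM in portal fibroblasts, 85.9 CPM in mesothelial cells, 69.9 CPM in smooth muscle cells (9 UMIs, 32.0 to 133) and 52.4 CPM in stellate cells (48.4 to 56.7). The wide interval of the smooth muscle cells holds both neighbours in that order. Col5a2 had the highest level of the 9 genes in endothelial cells, at 20.2 CPM (339 UMIs, 18.1 to 22.5) against 0.909 CPM in Kupffer cells (11 UMIs).

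Type VI chains were also highest in portal fibroblasts, and Col6a3 differed from the other chains in mesothelial cells. Col6a1 was at 1088 CPM in portal fibroblasts (1011 to 1169), 385 CPM in mesothelial cells (348 to 424), 248 CPM in stellate cells (239 to 258) and 225 CPM in smooth muscle cells (151 to 323). Col6a2 was at 723, 235, 106 and 116 CPM in the same types, and for both genes stellate and smooth muscle cells have overlapping intervals. Col6a3 was at 553 CPM in portal fibroblasts (499 to 611), 202 CPM in smooth muscle cells (132 to 296), 197 CPM in stellate cells (189 to 205) and 29.6 CPM in mesothelial cells (20.1 to 42.0). Mesothelial cells thus stood second for Col6a1 and Col6a2 and last for Col6a3, which was in 18.9% of them (5.68% after thinning) against 57.8% of stellate cells (31.4% after thinning).

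Col14a1 had an order of its own. It was at 2549 CPM in stellate cells (30253 UMIs, 2521 to 2578), 1126 CPM in portal fibroblasts (774 UMIs, 1048 to 1208), 596 CPM in mesothelial cells (624 UMIs, 550 to 644) and 334 CPM in smooth muscle cells (43 UMIs, 242 to 450). None of these intervals overlap. At least 1 UMI was seen in 99.7% of stellate cells (97.5% after thinning), 89.2% of portal fibroblasts (71.0%) and 88.9% of mesothelial cells (68.2%), against 1.63% of Kupffer cells (0.756%). Stellate cells had a median of 11 UMIs per cell and at most 65, and portal fibroblasts a median of 5.5 and at most 30.

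Replicate 1 held few stellate cells of its own. With the purity of the gate lowered from 75% to 50%, a choice made after the data were seen, 10 cells with 62868 UMIs passed, and 33287 of these UMIs were in 1 cell. Their Col14a1 level was 1638 CPM (103 UMIs, 1337 to 1987), from 6 of the 10 cells and with 55 UMIs in the largest cell. Without that cell it was 1623 CPM (48 UMIs, 1196 to 2151). Col14a1 made 55.7% of their 185 UMIs of the 9 genes, and 49.0% of 98 without the largest cell, against 57.5% in replicate 2. All 6 Col1a1 UMIs were in a single cell, so their level is not compared. A wider gate, also chosen after the data were seen, asked for no purity. It left out only cells passing the portal fibroblast, mesothelial or smooth muscle gate. This gave 136 cells of replicate 1, among them 9 of the 10. In these cells Col14a1 was at 160 CPM (138 to 185), with stellate markers at 1100 CPM against 11278 CPM in replicate 2.

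Most other types had few or no collagen UMIs. Hepatocytes (117 cells) had 7 UMIs of Col3a1 and at most 2 of any other of the 9 genes. Cholangiocytes (102 cells) had at most 2 UMIs of any of them, and lymphocytes (212 cells) and monocytes and dendritic cells (63 cells) had at most 1. Such counts do not separate expression from free RNA in the droplets. In Kupffer cells the 9 genes lay between 0.496 and 4.05 CPM, which is the level used as background here.

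Portal fibroblasts were set against the other mesenchymal types gene by gene, where a call means at least a 2-fold difference in CPM with at least 50 UMIs over both sides. Against stellate cells 8 of the 9 genes were called higher in portal fibroblasts, beside 10.2% of the 10946 genes with enough UMIs. The ratio was 23.9 for Col1a1 (21.9 to 26.0), 7.61 for Col1a2 (7.23 to 8.01), 7.16 for Col5a2, 6.84 for Col6a2, 5.89 for Col3a1, 4.38 for Col6a1, 2.81 for Col6a3 (2.52 to 3.13) and 2.12 for Col5a1 (1.84 to 2.44). The interval of Col5a1 reaches below 2. Col14a1 was called higher in stellate cells, by 2.26-fold (2.11 to 2.43), beside 17.5% of all genes. The median ratio was 5.89 over the 9 genes and 0.906 over all genes. The Col14a1 difference depended on which cells stood for stellate cells. The log2 ratio of portal fibroblasts over stellate cells was -1.18 with replicate 2. In replicate 1 it was -0.67 with the 6 cells at 75% purity. It was -0.54 with the 10 cells at 50% and -0.53 without the largest of them. All of these replicate 1 values are under 2-fold. With the 136 cells it was 2.81, the reverse direction. Their stellate markers were at 1100 CPM, against 8017 CPM in the 10 cells and 11278 CPM in replicate 2. The other 8 log2 ratios lay between 1.09 and 4.58 with replicate 2 and between 4.03 and 8.49 with the 136 cells.

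Within replicate 1 the comparisons do not cross libraries. Portal fibroblasts exceeded mesothelial cells at least 2-fold for 8 of the 9 genes, beside 10.6% of 5243 genes, and no member was called the other way, beside 14.2%. Col6a3 differed most, by 18.7-fold (12.9 to 27.9), then Col5a1 by 9.44-fold (6.61 to 13.8), Col1a2 by 8.63-fold and Col1a1 by 6.76-fold. Col6a1 differed least among those called, by 2.83-fold (2.50 to 3.20). Col14a1 stayed under 2-fold at 1.89 (1.70 to 2.10), and passed it when types were gated at 90% purity (log2 ratio 1.08, with 27 mesothelial cells left) or without mitochondrial, ribosomal protein and collagen UMIs in the total (1.01). At 90% purity the log2 ratio of Col6a3 went from 4.22 to 4.87 and remained the largest, while that of Col5a1 went from 3.24 to 2.76, below those of Col1a2 (3.40) and Col1a1 (3.10). Against smooth muscle cells all 9 genes were called higher in portal fibroblasts, beside 25.5% of 2718 genes, and none lower, beside 12%. Ratios ran from 2.74 for Col6a3 (1.84 to 4.25) to 6.21 for Col6a2 (3.73 to 11.2), with 3.96 for Col1a1 (log2 ratio 1.98, and 2.57 with the mean over cells of CPM), and Col5a1 was at least 13.9-fold higher, taking 3 UMIs as the limit of the smooth muscle count of 0.

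The make-up of the collagen UMIs differed between types. Col14a1 made 57.5% of the 52616 UMIs of the 9 genes in stellate cells (57.1 to 57.9), 21.2% in mesothelial cells (19.7 to 22.7), 10.2% in smooth muscle cells (7.49 to 13.5) and 8.68% in portal fibroblasts (8.10 to 9.28). Col3a1 ranked first in the last 3 of these types, with 28.6%, 37.3% and 29.1%. Col1a1 made 14.7% in portal fibroblasts and 1.80% in stellate cells, where it ranked eighth of the 9 and above Col5a2 alone (1.18%). In endothelial cells, with 847 UMIs in all, Col5a2 ranked first with 40.0% (36.7 to 43.4) and Col14a1 next with 28.3%.

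**Figure D2:**
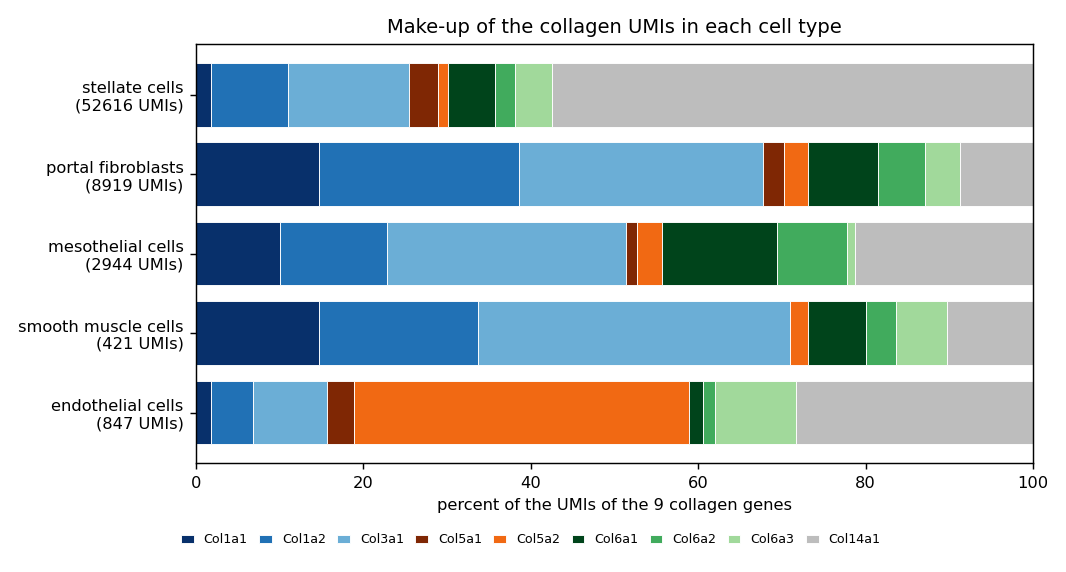
Share of each gene among the UMIs of the 9 collagen genes (percent) in 5 cell types, with the number of UMIs under each name. Col14a1 takes 57.5% of the bar of stellate cells and 8.68% of that of portal fibroblasts, and Col5a2 takes 40.0% of that of endothelial cells.

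The balance of chains within a collagen was compared between types on the assumption that a gene's capture rate is the same in both. For stellate cells this crosses libraries and was not tested. A share of UMIs is not a ratio of proteins. For type I, Col1a1 made 16.4% of the Col1a1 and Col1a2 UMIs in stellate cells (947 of 5789, 15.4 to 17.3). It made 38.0% in portal fibroblasts (1309 of 3444, 36.4 to 39.7), 43.9% in mesothelial cells (295 of 672, 40.1 to 47.7) and 43.7% in smooth muscle cells (62 of 142, 35.4 to 52.2). The stellate share lies below the intervals of the other 3, and that of smooth muscle cells overlaps both of its neighbours. Leaving out the cell with the most UMIs of the pair, an alternative chosen after the data were seen, gave 15.9%, 37.8%, 43.6% and 41.1%. Without the replicate 2 cells that pass the portal fibroblast or smooth muscle gate the stellate share was 15.2%. In endothelial cells Col1a1 made 25.9% of 58 UMIs, with a wide interval (15.3 to 39.0) that holds the stellate share.

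For type V the order of stellate cells, portal fibroblasts and mesothelial cells was the opposite. Col5a1 made 74.5% of the Col5a1 and Col5a2 UMIs in stellate cells (1813 of 2435, 72.7 to 76.2), 46.4% in portal fibroblasts (223 of 481, 41.8 to 50.9), 28.6% in mesothelial cells (36 of 126, 20.9 to 37.3) and 7.63% in endothelial cells (28 of 367, 5.13 to 10.8). These 4 intervals do not overlap. Smooth muscle cells had 0 of 9 UMIs, which allows a share of up to 33.6% by the exact interval. These shares leave out Col5a3, at 159 CPM in portal fibroblasts, 12.4 CPM in mesothelial cells and 6.24 CPM in stellate cells.

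For type VI, Col6a1, Col6a2 and Col6a3 made 45.1%, 19.2% and 35.7% of 6535 UMIs in stellate cells and 46.0%, 30.6% and 23.4% of 1625 UMIs in portal fibroblasts. The intervals of the Col6a1 share overlapped (43.9 to 46.3 against 43.6 to 48.5), while Col6a2 took more and Col6a3 less in portal fibroblasts. In mesothelial cells the shares were 59.3%, 36.2% and 4.56% of 680 UMIs, with an interval for Col6a3 of 3.12 to 6.41. These shares leave out the type VI genes Col6a5 and Col6a6. The 2 stood at 62.5 and 115 CPM in portal fibroblasts and at 32.5 and 7.64 CPM in mesothelial cells, with 0 UMIs in stellate cells. In endothelial cells Col6a3 made 75.9% of 108 UMIs (66.7 to 83.6). The portion of Col3a1 among Col1a1, Col1a2 and Col3a1 UMIs moved less, from 43.0% in portal fibroblasts to 56.8% in stellate cells, with 55.6% in mesothelial and 52.5% in smooth muscle cells.

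**Figure D3:**
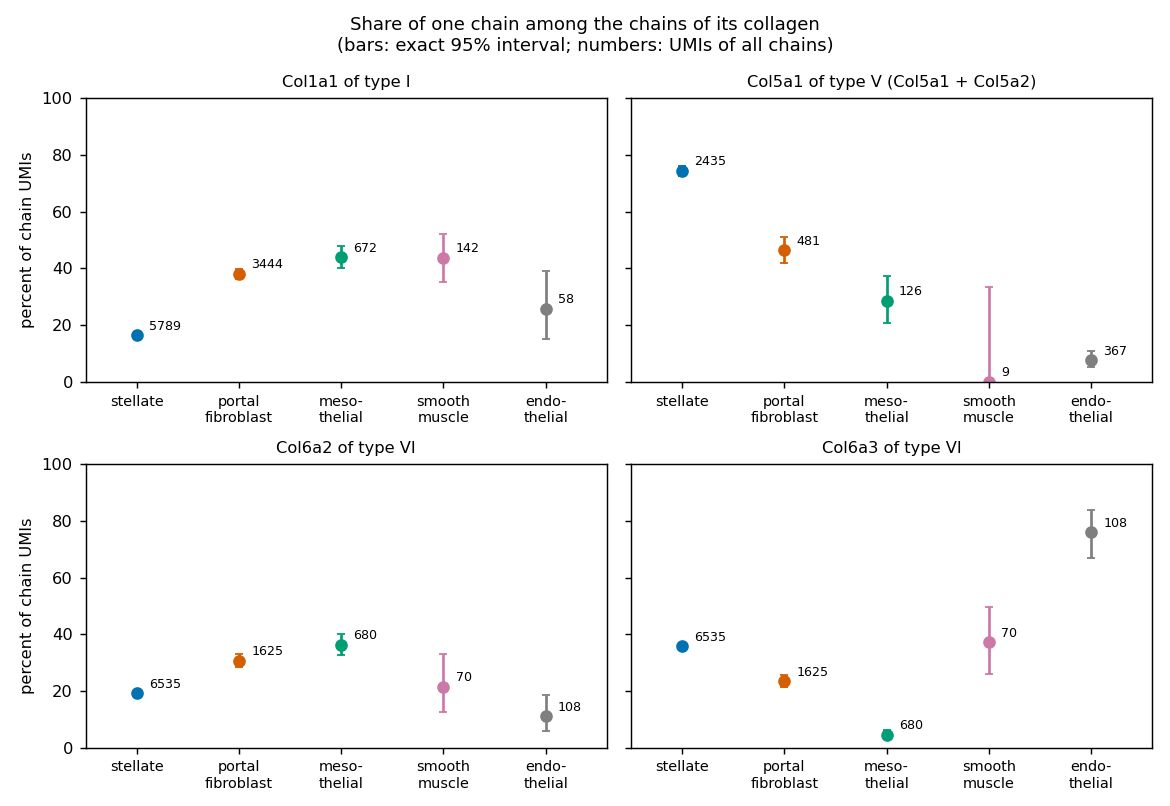
Share of a chain among the UMIs of the chains of its collagen (percent) in 5 cell types, with exact 95% intervals and the number of UMIs beside each point. Stellate cells have the lowest Col1a1 share (16.4%) and the highest Col5a1 share (74.5%), and mesothelial cells the lowest Col6a3 share (4.56%).

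Within stellate cells Col1a1 was the most unevenly spread of the 9 genes. The 234 cells with the most Col1a1 UMIs (of 2341) held 69.2% of them, against 22.3% for Col14a1 and 31.1% for Col1a2. Low counts also raise this measure: for Col5a2, seen in a similar share of cells (22.0%), it was 54.8%. The highest cells had 38, 22 and 11 Col1a1 UMIs. The 18 replicate 2 cells that also passed the portal fibroblast gate (0.769% of cells) held 94 of the 947 Col1a1 UMIs (9.93%) and 1.41% of the Col14a1 UMIs. The 91 cells that also passed the smooth muscle gate (3.89% of cells) held 12.7% of Col1a1 and 5.83% of Col14a1. Mustn1, a gene of the smooth muscle list, was in 83.5% of replicate 2 cells, and no other gene of that list in more than 3.46%. Whether the cells that passed either gate are doublets was not tested.

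Stellate cells were also ordered by a score, the mean of Adamtsl2, Loxl1, Podn and Spon2 minus that of Ngfr, Itgb3, Igfbp3 and Il34, genes known from the central and portal ends of the lobule. They were split into 3 ranges of 781, 780 and 780 cells. These are ranges of a continuous score, and 343 cells lay within 0.1 of a boundary. Col1a1 was at 115 CPM in the central, 80.9 CPM in the middle and 45.5 CPM in the portal range, and Col14a1 ran the other way at 2087, 2476 and 3057 CPM. Of the 9 genes Col1a1 alone differed at least 2-fold (central over portal 2.52, 2.12 to 3.01), beside 1.17% of 9738 genes, and none did so the other way, beside 1.1%. With 2 equal ranges in place of 3 the Col1a1 ratio fell below 2-fold (log2 ratio 0.74, against 1.34). Loxl1, a central gene of the score, was also the gene closest in pattern to Col1a1 over the cell types (Pearson r = 0.992). How far its place in the score shapes the Col1a1 ratio was not tested.

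The other genes fell into those higher centrally and those higher portally. Central over portal ratios were 1.73 for Col6a3 (1.56 to 1.92), 1.59 for Col3a1 (1.50 to 1.68), 1.42 for Col6a2 (1.24 to 1.64), 1.30 for Col6a1 (1.19 to 1.43) and 1.24 for Col1a2 (1.15 to 1.33). Portal over central ratios were 1.46 for Col14a1 (1.42 to 1.51) and 1.29 for Col5a1 (1.15 to 1.45), while that of Col5a2 was 1.12 with an interval that holds 1 (0.918 to 1.37). The 2 chains of type I thus differed in size of change, and the Col1a1 share went from 20.3% (18.6 to 22.0) in the central to 16.5% in the middle and 11.1% (9.61 to 12.7) in the portal range. The Col6a3 share of type VI was 39.1% in the central and 33.2% in the portal range. Cells passing the smooth muscle gate were unequal over the ranges, with 13 in the central, 10 in the middle and 68 in the portal range. UMIs of the whole smooth muscle list ran the other way, at 576, 516 and 477 CPM. Mustn1 of that list was in 83.5% of stellate cells. Cells passing the smooth muscle or portal fibroblast gate were then left out, also a choice made after the data were seen. The central over portal ratios without them were 2.34 for Col1a1 (1.94 to 2.85), 1.72 for Col6a3, 1.53 for Col3a1 and 0.686 for Col14a1. Median UMIs per cell rose from 4821 to 5250.5 from the central to the portal range.

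**Figure D4:**
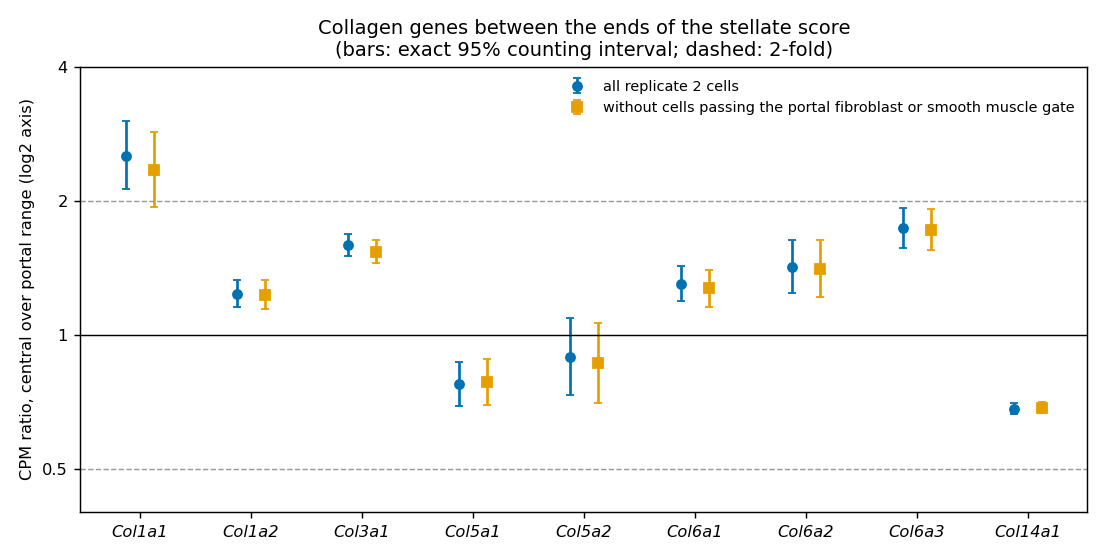
Ratio of CPM in the central over the portal range of stellate cells (log2 axis) for the 9 genes, with exact 95% intervals, in all cells of replicate 2 and without cells that pass the portal fibroblast or smooth muscle gate. Col1a1 alone lies above the 2-fold line (2.52 and 2.34), and Col14a1, Col5a1 and Col5a2 lie below 1.

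The 18 smooth muscle cells were not alike in collagen. The 3 cells with at least 10 Col1a1 UMIs (23, 13 and 13) held 79.0% of Col1a1, 71.3% of Col3a1 and 75.9% of Col6a1 UMIs of the type. These 3 cells held 30.8% of Col6a3 and were the deepest, with 15678, 9629 and 13874 UMIs in all against a type median of 6214.5. They also held 30 UMIs of portal fibroblast markers, against 11 in the other 15 cells. Col14a1 was elsewhere: 2 other cells had 15 UMIs each, and these 15 cells together held 90.7%. The part of fibroblast RNA in the smooth muscle values was not tested.

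Among the 9 genes Col5a2, Col14a1 and Col6a3 were highest in endothelial cells, at 20.2, 14.3 and 4.88 CPM. Kupffer cells had 0.909, 3.72 and 0.744 CPM of them. Col5a1 was also higher than in Kupffer cells, at 1.67 CPM (1.11 to 2.41) against 0.496 CPM (0.182 to 1.08). The intervals of Col3a1 overlapped (3.46 to 5.53 against 2.57 to 4.79). Col5a2, Col14a1 and Col6a3 lay unevenly over endothelial subsets. Subsets were made after the data were seen, by UMIs of a landmark gene: Rspo3 for the central vein, Vwf for larger vessels, Ly6c1 for portal and arterial endothelium and Stab2 for sinusoids. A cell can be in more than 1 subset. The 189 cells with at least 3 Rspo3 UMIs held 69 of the 82 Col6a3 UMIs (84.1%), at 56.2 CPM (43.7 to 71.2), against 0.338 CPM (0.110 to 0.788) in the 2772 cells with none. The 157 cells with at least 3 Vwf UMIs held 60 Col6a3 UMIs (73.2%), at 44.3 CPM (33.8 to 57.1), against 1.21 CPM with no Vwf. Col6a3 was at 1.59 CPM (1 UMI) in the 60 Ly6c1 cells. Col5a2 was high in both the Ly6c1 and the Vwf cells: it was at 84.1 CPM (63.0 to 110) in the 60 Ly6c1 cells, 79.1 CPM (64.8 to 95.6) in the 157 Vwf cells, 30.2 CPM (21.2 to 41.6) in the Rspo3 cells and 13.8 CPM (11.8 to 16.1) in the 1990 Stab2 cells.

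Col14a1 was at 40.7 CPM (30.2 to 53.7) in the Rspo3 cells against 9.66 CPM with no Rspo3, and at 34.7 CPM (25.5 to 46.2) in the Vwf cells against 12.6 CPM with no Vwf. Stellate markers were at 99.4 against 76.8 CPM over the Rspo3 split and at 75.4 against 93.4 CPM over the Vwf split. Between cells with and without a Col14a1 UMI they differed more: the 145 endothelial cells with a Col14a1 UMI had stellate markers at 469 CPM, and 54.5% of them had at least 1 such UMI, against 58.5 CPM and 16.3% in the 2927 cells without. For Col6a3 the shares were 10.6% of the 47 cells with a UMI and 18.3% of the 3025 without, while Rspo3 was in 89.4% and 8.53% of them. For Col5a2 the shares with a stellate marker were 26.5% of 245 cells and 17.4% of 2827. Median depth was also higher in the cells with a UMI, at 6980 against 4905 UMIs for Col14a1, 6326 against 4967 for Col6a3 and 6378 against 4899 for Col5a2. The part of stellate RNA in the endothelial values was not tested.

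**Figure D5:**
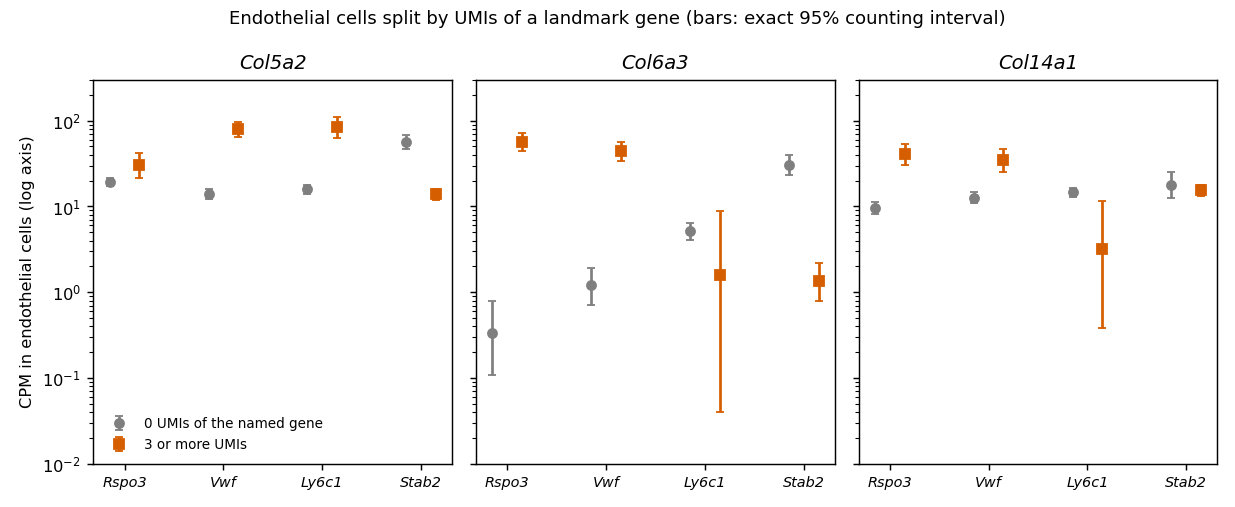
Level of Col5a2, Col6a3 and Col14a1 (CPM, log axis, exact 95% intervals) in endothelial cells with 0 or with at least 3 UMIs of Rspo3, Vwf, Ly6c1 or Stab2. Col6a3 stands at 56.2 CPM in cells with Rspo3 and 0.338 CPM in cells without, and Col5a2 at 84.1 CPM in cells with Ly6c1.

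Genes that make, cut, join and bind collagen were read between portal fibroblasts and stellate cells by the same 2-fold rule. Of 14 folding and hydroxylation genes with enough UMIs (16 in the list), 3 were higher in portal fibroblasts, 1 was higher in stellate cells and 10 were within 2-fold, with a median ratio of 1.05. Over all genes 10.2% were higher in portal fibroblasts and 17.5% in stellate cells, which holds for each list below too. The collagen chaperone Serpinh1 was 2.33-fold higher in portal fibroblasts (1183 against 507 CPM), the proline hydroxylase P4ha2 2.51-fold and Fkbp10 2.45-fold. The prolyl 3-hydroxylase P3h2 was higher in stellate cells by 5.82-fold, with an interval of 1.59 to 48.4 from 2 UMIs in portal fibroblasts.

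Export and propeptide removal had 6 of 9 genes higher in portal fibroblasts and 1 higher in stellate cells (median ratio 2.16). Pcolce2, an enhancer of C-propeptide removal, had 440 UMIs in portal fibroblasts and 14 in stellate cells (640 against 1.18 CPM). The C-proteinase Bmp1 was 5.48-fold higher in portal fibroblasts and the coat protein Sec24d 2.58-fold. The N-proteinase Adamts14 was 4.54-fold higher in stellate cells (1.53 to 22.2, from 3 UMIs in portal fibroblasts). Of the 5 crosslinking genes 3 were higher in portal fibroblasts and 1 in stellate cells (median 2.11). Lox was at 122 against 0.674 CPM, Loxl1 at 445 against 44.7 CPM and Loxl2 was 2.11-fold higher, while Loxl4 was 3.92-fold higher in stellate cells (1.32 to 19.2, from 3 UMIs).

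Receptors differed in both directions. Of 8 receptor and uptake genes with enough UMIs 5 were higher in portal fibroblasts and 2 in stellate cells (median 3.01). Itga1, an integrin chain that binds collagen, was at 1083 CPM in stellate cells and 36.4 CPM in portal fibroblasts, a 29.8-fold difference (20.2 to 46.0). Another, Itga11, was at 69.8 CPM in portal fibroblasts and 0.506 CPM in stellate cells (48 and 6 UMIs). Antxr2, a receptor that takes up collagen VI, was 11.7-fold and the endocytic receptor Mrc2 5.51-fold higher in portal fibroblasts.

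Of 35 other collagen genes in the list 26 were read and 14 had enough UMIs. Of these 7 were higher in portal fibroblasts and 2 in stellate cells (median 6.76). Col15a1 had 302 UMIs in portal fibroblasts and 0 in stellate cells, at least a 1738-fold difference with 3 UMIs as the limit of the 0, and the type VI chain Col6a6 had 79 and 0, at least 455-fold by the same limit. Col4a5 had 78 and 5 UMIs and Col4a4 had 49 and 18 (47.0-fold). These lists were read across libraries, as with the 9 genes.

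The genes with the most similar pattern over 9 types were found by Pearson correlation of log2(CPM + 1) among 11602 genes, as a description over few types that share libraries. For Col1a1 they were Loxl1, Mrc2, Crispld2, Col6a2 and Cd248 (r = 0.989 to 0.992). For Col3a1 they were Col1a2, Smoc2, Cygb, Col6a1 and Antxr1. For Col6a3 they were Sparcl1, Rem1, Gm38211, Tnxb and Col5a1, and Gm38211 lies inside Col5a2 on the same strand. For Col14a1 the first was Dcn (r = 0.994), at 27290 CPM in stellate cells and 13892 CPM in portal fibroblasts, the same direction as Col14a1, followed by Pcdh7, Cygb, C1qtnf7 and Ddr2.

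By GENCODE vM21 on GRCm38, 2 pairs of the genes are neighbours. Col3a1 (chromosome 1, 45311538 to 45349706, plus strand) and Col5a2 (45374321 to 45503282, minus strand) face each other tail to tail across 24614 bases. Their levels differed in endothelial cells, where Col3a1 had 74 UMIs and Col5a2 339, and in stellate cells, where they had 7604 and 622. Col6a2 (chromosome 10, 76595762 to 76623630) and Col6a1 (76708792 to 76726168) lie on the minus strand 85161 bases apart. The other genes are single in the set: Col1a1 on chromosome 11 (94936224 to 94953042), Col1a2 on 6 (4504814 to 4541544), Col5a1 on 2 (27886425 to 28039514), Col6a3 on 1 (90765923 to 90843971, minus strand) and Col14a1 on 15 (55307750 to 55520803). All 9 are protein-coding.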

How the data were processed

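The deposited table holds raw UMI counts of both samples, whole numbers per gene and cell. Cell Ranger 2.1.1, Seurat 3.1 and GRCm38 are named in the submitters' processing notes; their roles, the annotation and any earlier cell filter are not given in the sources used here. Barcodes end in 1 or 2, taken here as the replicate number; 5 barcodes have both endings. Cells under 200 genes or over 20% mitochondrial UMIs were dropped (597 of replicate 1, 0 of replicate 2). Marker gates gave the types (hepatocytes needed 10 UMIs from 3 genes); 214 cells of replicate 1 that passed several gates without 75% purity (mixed cells) and 250 that passed none were set aside, which replaced a doublet caller. Free RNA was not subtracted. UMIs were summed per type and scaled to CPM. Intervals are Poisson (levels), Clopper-Pearson (shares) and binomial conditional on the sum (ratios), at 95%, and ratios against 0 UMIs used 3 UMIs in its place. A 3' UMI is 1 molecule, so no length scaling was used. Named beyond the 9 genes were up to 4 called genes per list by largest ratio and 5 pattern neighbours of 4 members. The members and lists were chosen with earlier results of these data known. Python 3.11.15, numpy 2.4.6 and scipy 1.17.1 were used.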

Additional observations from a re-analysis of the deposited data

How the results depend on the processing

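Among alternative values for the counts of genes and the chain shares, 89 stayed within 1.5 times (counts) or within the counting interval (shares), and 10 moved, all of them about stellate cells. Gating stellate cells without any other gate (1170 cells) gave a Col1a1 share of type I of 14.5%. Without replicate 2, 6 gated cells remained, with no member called higher in stellate cells (0), a Col1a1 share of 0 (of 2 UMIs), a Col6a3 share of 33.3% (of 6 UMIs) and no value for the Col5a1 share. With the 10 cells of replicate 1 at 50% purity, 0 members were called higher in stellate cells, and the Col1a1 share was 26.1%, with all Col1a1 UMIs in 1 cell. Allowing all gates except portal fibroblast, mesothelial and smooth muscle, with no purity step, gave 136 cells. Like the 50% purity, this setting was chosen after the data were seen. There 0 members were called higher in stellate cells and 9 in portal fibroblasts, the Col1a1 share was 18.75% (also from 1 cell), the Col5a1 share 31.6%, and the Col14a1 ratio reversed (log2 2.81 for portal fibroblasts over these cells). Splitting the score into 2 equal ranges left 0 members at 2-fold. The number of members called higher in portal fibroblasts than in stellate cells ran from 6 (without replicate 2) to 9. Cell filters moved no Col1a1, Col5a1 or Col6a3 share of replicate 2 stellate cells or portal fibroblasts. Leaving out the cell with the most UMIs of the chains moved none of them either. Stricter gates moved none of these shares in portal fibroblasts. The chain shares of mesothelial and smooth muscle cells were not recomputed under cell filters or stricter gates. No paired analysis was possible because the study has 1 group, and its replicates hold different cell types. For smooth muscle cells, 421 collagen UMIs limit every value.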

Other observations

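The 214 mixed cells of replicate 1 entered no comparison, yet they held 39.0% of that library's Col1a1 UMIs (1094 of 2805), next to 46.7% in portal fibroblasts. Of these cells 111 passed the portal fibroblast or the mesothelial gate, 83 of them both, and the 111 held 99.4% of the Col1a1, 98.4% of the Col3a1 and 84.6% of the Col14a1 UMIs of the mixed cells. Their Col1a1 share of type I was 43.2% (41.2 to 45.1), near that of mesothelial cells, and their Col6a3 share of type VI was 13.4% (11.4 to 15.7), between mesothelial cells and portal fibroblasts. The mixed cells had a median of 9498.5 UMIs, against 11530 in mesothelial cells and 6928.5 in portal fibroblasts. Of the portal fibroblast markers, mesothelial cells as gated had Gas1 in 98.9%, Clec3b in 53.3%, Thy1 in 34.4% and Entpd2 in 26.7% of cells. Dpt was in 2.22%, Pi16 in 1.11% and Mfap4 in 0%. A gate asks for at least 2 genes of a list. Whether the mixed cells are doublets was not tested.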
